A study of Mus musculus with 10 samples.

Results

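The 10 genes described here mark the mural cells of blood vessels, that is pericytes and vascular smooth muscle: Acta2, Tagln, Myh11, Cnn1, Des, Rgs5, Pdgfrb, Cspg4, Notch3 and Mcam. They were taken by symbol, and all 10 were found among the 24421 gene symbols measured and passed the filter on low counts. Total RNA was sequenced from the inguinal subcutaneous white fat on the left side of C57BL/6J mice of genotype WT. In 4 libraries (FLASH) the left hindlimb had received 33.3 Gy of electrons at ultra-high dose rate, in 3 libraries (CONV) the same dose at conventional dose rate, and 3 libraries (sham) came from mice left unirradiated. All tissue was taken at day 70, all libraries carry batch number 1, and the ElectronFlash linear accelerator gave both kinds of beam. Neither the sex or age of the mice nor whether libraries come from separate animals is stated, so p-values reflect only the spread between these samples, which may be technical. The samples are bulk tissue, in which fewer mural cells and less RNA per mural cell cannot be told apart.

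Mural cells wrap the endothelial tube: smooth muscle cells form the contractile coat of arteries and veins, and pericytes sit along capillaries inside the shared basement membrane. Endothelial cells recruit them with platelet-derived growth factor B, read by the receptor encoded by Pdgfrb, and signal to them by contact through Notch ligands, read by the receptor encoded by Notch3. Contractile genes such as Acta2 are switched on by serum response factor with its partner myocardin at CArG boxes in their promoters. In fat, perivascular cells are also known as a place where progenitors of adipocytes reside.

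Promoters are shown for the 3 genes with the smallest edgeR p-values between CONV and sham with 8 libraries (with 10, Myh11, for which no window was held, came before Mcam), to let their start regions be compared. RefSeq windows on GRCm38.p6, from 250 bases before to 50 bases after the start site, were held for 7 of the 10 genes, and the 250 bases before the start are printed. Capitals mark CArG boxes in Acta2 (at most 1 base of the core between CC and GG is not A or T), TATATA in Rgs5 and GGGCGG on either strand in Mcam.
Acta2 (chr19:34255374-34255623, minus strand): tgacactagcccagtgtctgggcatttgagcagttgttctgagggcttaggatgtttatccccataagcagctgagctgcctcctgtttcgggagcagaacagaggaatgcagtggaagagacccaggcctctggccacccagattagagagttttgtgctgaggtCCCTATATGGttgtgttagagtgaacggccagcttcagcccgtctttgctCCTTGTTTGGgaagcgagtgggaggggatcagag
Rgs5 (chr1:169655251-169655500, plus strand): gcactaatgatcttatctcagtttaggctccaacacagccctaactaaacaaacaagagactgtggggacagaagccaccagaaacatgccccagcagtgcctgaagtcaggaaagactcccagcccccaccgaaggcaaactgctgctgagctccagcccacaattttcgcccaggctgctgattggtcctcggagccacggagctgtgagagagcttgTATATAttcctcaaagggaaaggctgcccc
Mcam (chr9:44134408-44134657, plus strand): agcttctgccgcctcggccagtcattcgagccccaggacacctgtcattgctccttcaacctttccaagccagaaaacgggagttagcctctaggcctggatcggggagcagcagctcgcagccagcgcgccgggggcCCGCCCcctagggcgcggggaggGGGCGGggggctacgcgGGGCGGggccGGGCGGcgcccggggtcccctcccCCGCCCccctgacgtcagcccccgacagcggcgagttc
The 2 CArG boxes of Acta2 begin 84 and 34 bases before the start site, and a TATATA begins 8 bases after it. Of all 32851 promoter windows of 300 bases, 9.98% held a CArG box by this rule, 5.67% held TATATA and 35.7% held GGGCGG on either strand. Rgs5 held TATATA but neither of the others, while Mcam held 5 GGGCGG matches and neither of the others. GC content was 54.7% in Acta2, 52.3% in Rgs5 and 72.7% in Mcam, against a median of 52.7% over all windows. None of these 3 motifs was common to the 3 windows, and a match is a description of letters, not of a bound site.

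Counts assigned to genes were 22.4 M to 36 M per library (M for mega), and a count of 3 equalled 0.0909 to 0.116 CPM, which covers counting error only. CPM are counts per 1000000 after scaling of the libraries by the trimmed mean of M values (TMM). FLASH replicate 3 and CONV replicate 2 stood apart: their summed CPM over 9 B cell genes was 2323 and 2816, against at most 9.93 in the other 8 libraries, and their summed CPM over 12 adipocyte genes was 6016 and 4597, against 24400 to 38170. The 2 most abundant B cell genes, Cd22 and Cr2, were at 474 and 417 CPM in FLASH 3 and at 662 and 383 CPM in CONV 2. These libraries are called the B cell-rich pair, and each result is given with all 10 libraries and with the 8 others. Differences were tested with edgeR over 15266 genes with 10 libraries and 15252 genes with 8, with p-values adjusted over all of them and a threshold of 0.05.

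In sham fat the genes differed widely in level per exon length. On the scale of mean CPM per kb, Mcam, an adhesion molecule of endothelial and mural cells, was highest at 133 ± 10.6 (SD, n = 3), followed by Acta2 at 55.8 ± 25.3 and Rgs5 at 44.3 ± 3.88. Pdgfrb had 25.4 ± 3.22 and Tagln 19.6 ± 7.68 CPM per kb, and Notch3, Cspg4 and Myh11 followed at 14.8 ± 1.49, 13.3 ± 3.76 and 9.84 ± 4.93. Des had 7.20 ± 6.10 and Cnn1 0.570 ± 0.457 CPM per kb. Mcam stood clear of the next gene and Rgs5 of Pdgfrb, whereas Acta2 and Rgs5, and each pair of neighbours from Pdgfrb to Des, lay within each other's spread. The contractile genes Acta2, Tagln, Myh11 and Cnn1 varied more between sham libraries than the pericyte genes Rgs5, Pdgfrb and Notch3.

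**Figure D1:**
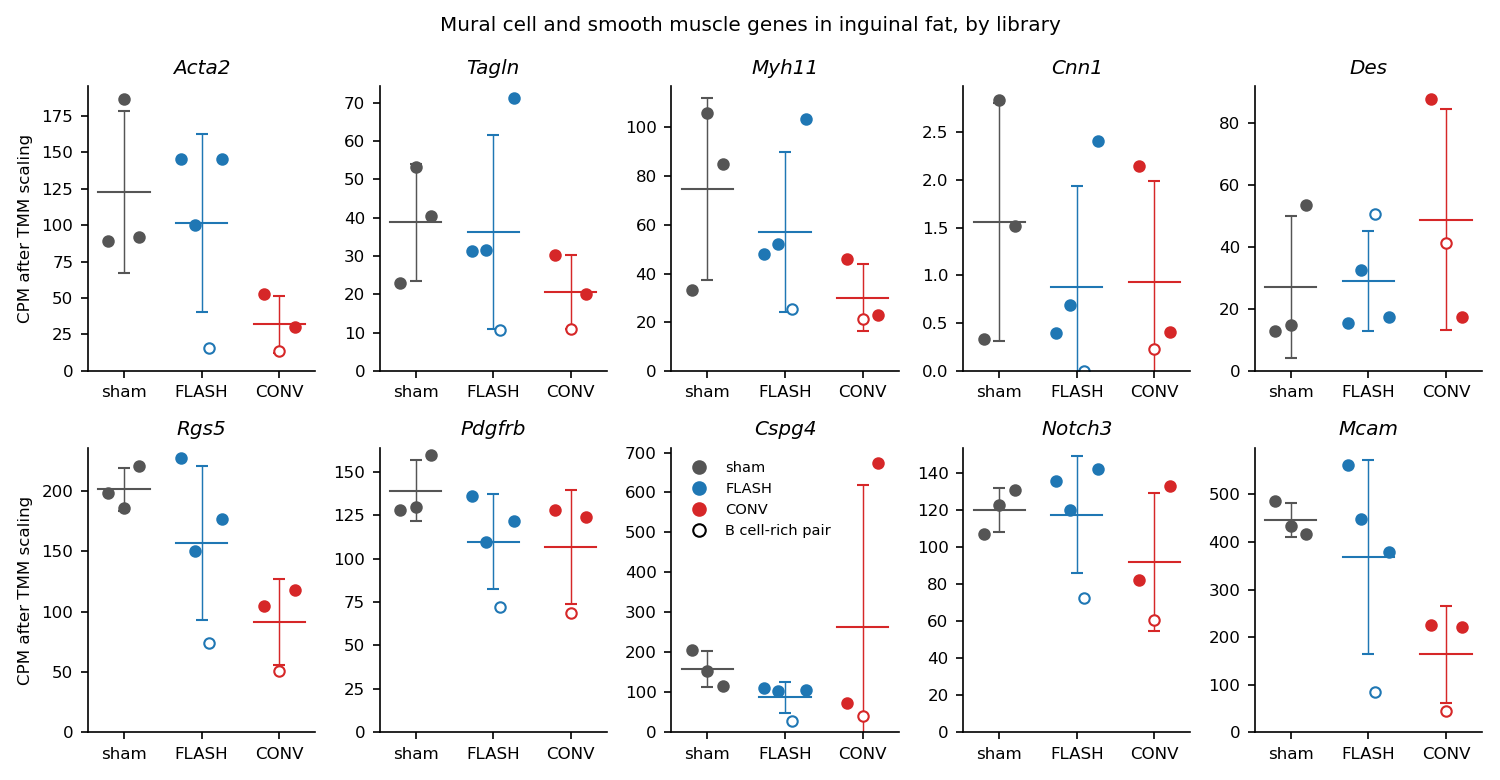
Level of each gene in CPM after TMM scaling (vertical axis, a scale of its own in each panel, starting at 0) in the 3 sham, 4 FLASH and 3 CONV libraries; points are libraries, open points the B cell-rich pair, horizontal lines group means and bars SD over all libraries of a group, drawn only above 0. Acta2, Rgs5, Mcam and, by under 1 CPM, Pdgfrb are lower in every CONV library than in every sham library, as are 9.11% of all genes. For Cspg4, 1 CONV library stands far above all others.

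Acta2, encoding smooth muscle alpha-actin (chromosome 19, 34241090 to 34255590, minus strand, GRCm38), was at 88.8, 187 and 92.1 CPM in sham replicates 1 to 3. It was at 145, 100, 15.4 and 145 CPM in FLASH replicates 1 to 4 and CONV replicates 1 to 3 had 52.4, 13.8 and 29.8 CPM. Every CONV library was below every sham library, while 3 of the 4 FLASH libraries were within the sham range and FLASH 3 of the B cell-rich pair was low. With 8 libraries the log2 fold change of CONV against sham was -1.59 ± 0.40 (SE), 3.02-fold lower, with an edgeR p of 0.00421 and an adjusted p of 0.159. With 10 libraries it was -1.94 ± 0.78 with an edgeR adjusted p of 0.607. FLASH against sham was 0.08 ± 0.34 with 8 libraries, with an edgeR adjusted p of 1.00, and FLASH against CONV 1.67 ± 0.40 with an adjusted p of 0.160. Acta2 was thus the gene of the 10 furthest below sham in CONV, without passing the threshold over all genes.

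Tagln encodes transgelin, an actin-binding protein of smooth muscle (chromosome 9, 45929619 to 45936058, minus strand). Its levels were 22.9, 53.3 and 40.4 CPM in sham, 31.3, 31.5, 10.7 and 71.3 CPM in FLASH and 30.3, 11.1 and 20.2 CPM in CONV. The 3 groups overlapped, and with 8 libraries each FLASH library was above both CONV libraries. CONV against sham was -0.64 ± 0.47 on the log2 scale with 8 libraries and FLASH against CONV was 0.84 ± 0.47, with edgeR adjusted p of 0.600 and 0.487. Single libraries moved these values: CONV against sham was -0.34 without sham 2 and -0.97 without CONV 1, and FLASH against CONV was 0.32 without FLASH 4. Exons of Pcsk7 and Gm48529 on the plus strand cover 67.9% of the exon length of Tagln, and no source used here gives the strand setting of the counting, so reads of the 2 strands cannot be told apart there. Pcsk7 was at 32.9 to 39.6 CPM in 7 of the 8 other libraries and at 44.6 CPM in CONV 3, and at 56.0 and 55.9 CPM in the B cell-rich pair, where Tagln was lowest.

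Myh11, the smooth muscle myosin heavy chain (chromosome 16, 14194535 to 14291372, minus strand), was at 33.2, 106 and 84.8 CPM in sham. FLASH libraries had 47.9, 52.0, 25.3 and 103 CPM and CONV libraries 45.9, 21.3 and 23.1 CPM. The ranges of sham and CONV overlapped through sham 1, the lowest sham library. CONV against sham was -1.13 ± 0.56 with 8 and -1.31 ± 0.58 with 10 libraries on the log2 scale, with edgeR adjusted p of 0.436 and 0.607. With 8 libraries it was -0.71 without CONV 3 and -1.72 without CONV 1. FLASH against CONV was 0.99 ± 0.56, and 0.54 without FLASH 4 or 1.58 without CONV 1. FLASH against sham was -0.15 ± 0.48 with 8 libraries, with an edgeR adjusted p of 1.00.

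Cnn1, encoding calponin (chromosome 9, 22099216 to 22109630, plus strand), had the lowest counts of the 10 genes, with raw counts of 11, 87 and 45 in sham, 13, 19, 0 and 78 in FLASH and 67, 7 and 11 in CONV. In CPM this was 0.334, 2.83 and 1.51 in sham, 0.394, 0.695, 0 and 2.41 in FLASH, and 2.15, 0.235 and 0.405 in CONV. All 3 groups overlapped. The log2 fold change of CONV against sham was -0.29 ± 1.06 with 8 libraries, with an edgeR adjusted p of 0.928. Without CONV 1 it was -1.96 and without sham 2 it was 0.46.

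FLASH 4, which had the highest Tagln and Myh11 level of the FLASH libraries, also had Krt5 at 30.4 CPM and Krt14 at 20.3 CPM, keratins of basal epithelial and myoepithelial cells, which use several of the same contractile genes. In the other 9 libraries Krt5 was at 0 to 3.94 CPM and Krt14 at 0 to 2.32 CPM. Krt17, Cdh1 and Trp63 of the same list were also highest in FLASH 4, at 2.56, 7.76 and 25.0 CPM, with Trp63 at 24.8 CPM in CONV 3. Oxtr and Krt19 went the other way, at 14.9 and 0.185 CPM in FLASH 4, below every sham library. The summed CPM of the 10 epithelial and myoepithelial genes was 41.1 to 74.7 in sham, 17.7 to 102 in FLASH and 22.4 to 43.1 in CONV. These sums do not follow the keratins: in FLASH 1 the sum was 88.7, with Oxtr at 72.4 and Krt5 at 0 CPM. Krt8 and Krt18 were at or near 0 in every library. The part of such cells in the contractile genes of FLASH 4 was not tested.

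Des encodes desmin, the intermediate filament of muscle cells of every type (chromosome 1, 75360329 to 75368579, plus strand). It was at 12.8, 14.8 and 53.5 CPM in sham, 15.5, 32.5, 50.5 and 17.4 CPM in FLASH, and 87.7, 41.1 and 17.5 CPM in CONV. High and low libraries occurred in all groups, and CONV against sham was 0.95 ± 0.78 on the log2 scale with 8 libraries (edgeR adjusted p of 0.642). The summed CPM of 14 skeletal muscle genes was 8394 in CONV 1, 3484 in sham 3, 1961 in FLASH 2, 597 in FLASH 3, 429 in CONV 2 and 386 in FLASH 4, against 63.6 to 87.0 in the other 4 libraries. The most abundant of them, Ttn and Myh4, were at 6196 and 758 CPM in CONV 1 and at 2731 and 313 CPM in sham 3, the 2 libraries highest in Des. In FLASH 3 and CONV 2, where Des was also high, the sum was nearly all Ttn, at 561 and 399.7 CPM. The rest of the list was mixed there. The skeletal actin gene Acta1 was at 0.386 and 0.905 CPM and the myosin light chain gene Myl1 at 10.4 and 5.23 CPM. These were the lowest 2 of the 10 libraries for both genes. By contrast, Tnnt3 was at 3.40 and 3.42 CPM, Mylpf at 1.00 and 1.64 CPM and Eno3 at 13.5 and 9.22 CPM. Those levels were above the 4 libraries with the lowest sums. Without CONV 1 the fold change of CONV against sham became -0.65 with 8 libraries, so its direction rested on that library. The part of skeletal muscle in the Des level was not tested.

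Rgs5, a regulator of G protein signalling and a classic pericyte gene (chromosome 1, 169655501 to 169695813, plus strand), was at 198, 186 and 220 CPM in sham. It was at 227, 151, 74.0 and 177 CPM in FLASH and at 105, 51.2 and 118 CPM in CONV. All 3 CONV libraries were below the sham range, and FLASH libraries outside the B cell-rich pair lay on both sides of it. With 8 libraries the log2 fold change of CONV against sham was -0.87 ± 0.18, 1.83-fold lower, with an edgeR p of 0.00135 and an adjusted p of 0.114. FLASH against CONV was 0.74 ± 0.18 with an edgeR adjusted p of 0.161, and FLASH against sham -0.13 ± 0.16 with an adjusted p of 1.00. With 10 libraries CONV against sham was -1.14 ± 0.42, with an edgeR adjusted p of 0.607.

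Mcam (CD146; chromosome 9, 44134469 to 44142727, plus strand) had 485, 434 and 417 CPM in sham, 562, 447, 84.6 and 379 CPM in FLASH and 225, 45.4 and 221 CPM in CONV. The 2 CONV libraries outside the B cell-rich pair were nearly equal and about 2.03-fold below sham, and the pair had the lowest values of their groups. With 8 libraries CONV against sham was -1.02 ± 0.18 on the log2 scale, with an edgeR p of 0.000487 and an adjusted p of 0.0924, the lowest p among the 10 genes. FLASH against CONV was 1.06 ± 0.18 with an edgeR adjusted p of 0.100, and FLASH against sham was 0.05 ± 0.16. With 10 libraries CONV against sham was -1.44 ± 0.71, with an edgeR adjusted p of 0.607.

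Pdgfrb, the receptor through which pericytes are recruited (chromosome 18, 61045150 to 61085061, plus strand), was at 128, 130 and 159 CPM in sham, 136, 109, 72.0 and 121 CPM in FLASH, and 128, 68.7 and 124 CPM in CONV. CONV libraries were all below the lowest sham library, CONV 1 by under 1 CPM (127.7 against 128.0). The log2 fold change of CONV against sham was -0.16 ± 0.14 with 8 libraries and that of FLASH against sham -0.19 ± 0.13, with edgeR adjusted p of 0.658 and 1.00. The difference between FLASH and CONV was -0.03 ± 0.14.

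Notch3, the Notch receptor of vascular smooth muscle and pericytes (chromosome 17, 32120820 to 32166852, minus strand), was at 107, 122 and 130.5 CPM in sham, 136, 120.0, 72.3 and 142 CPM in FLASH, and 82.1, 60.4 and 133 CPM in CONV. The groups overlapped, since CONV 3 was above all sham libraries. With 8 libraries CONV against sham was -0.18 ± 0.20 and FLASH against sham 0.14 ± 0.18 on the log2 scale, with edgeR adjusted p of 0.747 and 1.00. Pdgfrb and Notch3 were thus within 2 SE of sham in both irradiated groups.

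Cspg4, encoding the proteoglycan NG2 of pericytes and of some progenitors (chromosome 9, 56865033 to 56899870, plus strand), was at 205, 153 and 116 CPM in sham and at 112, 103, 29.3 and 105 CPM in FLASH. In CONV it was at 74.2, 42.3 and 674 CPM. Each FLASH library was below each sham library, CONV 1 and CONV 2 were also below each sham library, and CONV 3 was above every other library. The lowest level of all was that of FLASH 3. FLASH against sham was -0.58 ± 0.63 with 8 libraries and -0.86 ± 0.86 with 10 (edgeR adjusted p of 1.00 and 0.998), and CONV against sham was 1.22 ± 0.69 with 8 libraries. Without CONV 3 the latter became -1.10 ± 0.29 with an edgeR adjusted p of 0.166, from 1 CONV library whose spread is assumed to be that of the other groups. The direction for CONV thus rested on 1 library.

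**Figure D2:**
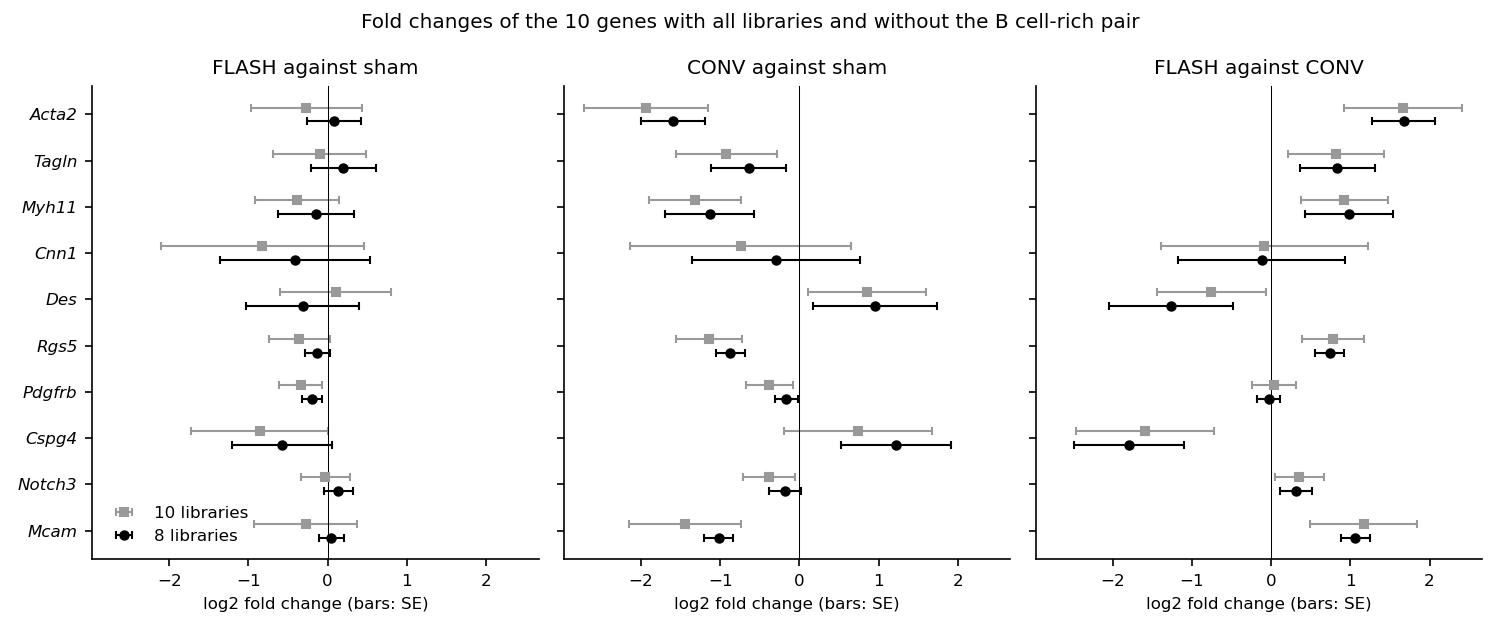
Log2 fold changes from edgeR (horizontal axis) with SE bars for each gene in the 3 comparisons, FLASH against sham on the left, CONV against sham in the middle and FLASH against CONV on the right; grey squares use 10 libraries and black circles the 8 without the B cell-rich pair. With 8 libraries Acta2, Rgs5 and Mcam lie at -1.59, -0.87 and -1.02 in CONV against sham and near 0 in FLASH against sham.

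In edgeR with 10 libraries, 0 of the 10 genes passed the threshold in any of the 3 comparisons, where 0%, 0% and 0% of all genes passed. With 8 libraries 0 of the 10 passed again, against 0% of all genes in FLASH against sham, 0.0393% in CONV against sham and 0.0131% in FLASH against CONV. Acta2, Rgs5 and Mcam had unadjusted edgeR p under 0.05 and lower values in CONV than in sham with 8 libraries, 3 of 10 against 6.24% of all genes tested. The same 3 genes were higher in FLASH than in CONV by that measure, against 6.75% of all genes, and Cspg4 was lower. The 2 comparisons share the CONV libraries. In DESeq2 with the same 8 libraries these 3 genes passed the threshold in both comparisons. Their DESeq2 adjusted p were 4.34e-05 to 0.00328 in CONV against sham and 1.45e-05 to 0.0139 in FLASH against CONV. In these comparisons DESeq2 called 661 and 667 of the 15252 genes that passed the filter, beside 3 of the 10 genes. In limma voom none of the 10 passed, and the smallest adjusted p was 0.0875, for Mcam.

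By the ranges of the groups, 4 of the 10 genes (Acta2, Rgs5, Pdgfrb and Mcam) were lower in every CONV than in every sham library with 10 libraries, against 9.11% of all genes. The same 4 genes were so with 8 libraries, against 13.2%. Cspg4 was the 1 gene lower in every FLASH than in every sham library with 10 libraries, against 2.45%. Acta2, Tagln, Myh11, Rgs5 and Mcam were higher in every FLASH than in every CONV library with 8 libraries, 5 of 10 against 12.8%. The median log2 fold change of the 10 genes in CONV against sham was -0.47 with 8 libraries and -0.83 with 10, beside medians of 0.01 and 0.08 over all genes. For FLASH against sham it was -0.14 and -0.31, beside -0.01 and 0.03.

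To set the mural genes beside the vessel lining in the same library, each was expressed as log2 CPM minus the mean log2 CPM of 12 endothelial genes, relative to the sham mean. Rgs5 was at -0.77, -0.77 and -0.89 in CONV replicates 1 to 3 and at -0.07, -0.37, -0.59 and -0.21 in FLASH replicates 1 to 4, with sham between -0.10 and 0.19. Mcam was at -0.82, -2.09 and -1.13 in CONV and at 0.09, 0.05, -1.54 and -0.25 in FLASH, with sham between -0.33 and 0.34. On this scale the 3 CONV values of Rgs5 were close to each other and below all other libraries, and those of Mcam were below all others except FLASH 3.

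Acta2 on this scale was at -0.97, -1.86 and -2.07 in CONV and at 0.08, -0.15, -2.04 and 0.31 in FLASH, with sham between -0.56 and 0.73. Pdgfrb ran from -0.29 to 0.19 and Notch3 from -0.38 to 0.22 over all 10 libraries, so that these 2 receptor genes kept close to the endothelial genes in every library. Cspg4 was at 2.01 in CONV 3 and between -1.54 and 0.62 elsewhere. The endothelial mean itself was -0.85 in FLASH 3 and -1.20 in CONV 2 relative to sham, and between -0.21 and 0.25 in the other 8 libraries. The most abundant endothelial genes, Ptprb and Cdh5, were at 132 and 113 CPM in FLASH 3 and at 91.7 and 95.1 CPM in CONV 2, against at least 339 and 213 CPM in the other libraries. Pecam1, which lymphoid cells and platelets also express, was highest in these 2 libraries, at 281 and 261 CPM against 166 to 243 CPM. These values are descriptions without a test, and the part of lymphoid cells in the low mural levels of the pair was not tested.

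**Figure D3:**
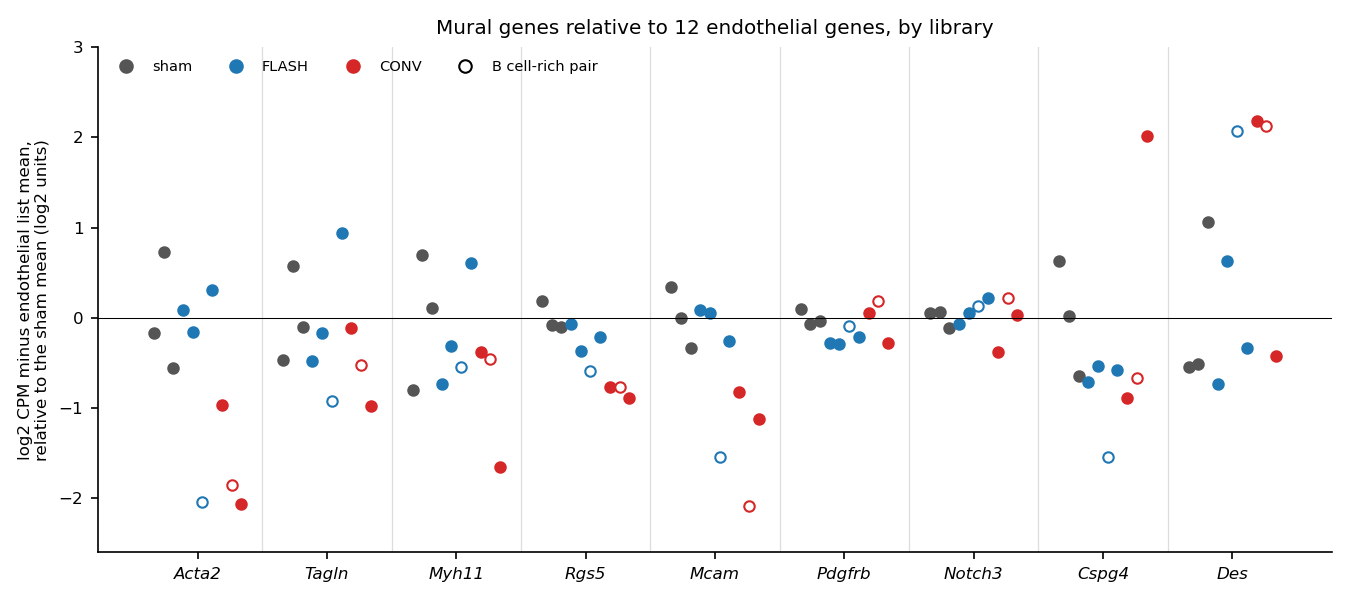
Log2 CPM of each gene minus the mean of 12 endothelial genes in the same library, relative to the sham mean (vertical axis, log2 units); points are the 10 libraries in order of group, open points the B cell-rich pair, and Cnn1 is left out for its low counts. Rgs5 lies at -0.77 to -0.89 in the 3 CONV libraries, and Pdgfrb and Notch3 stay between -0.38 and 0.22 in all libraries.

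A further 6 gene lists cover the machinery around these markers, and no gene of any of them passed the edgeR threshold in any of the 3 comparisons with 10 or with 8 libraries. Genes named from them have the smallest unadjusted p, and none of their values passed. Of 18 further genes of the contractile apparatus, 14 had lower and 4 higher values in CONV than in sham with 8 libraries, with a median log2 fold change of -0.54. Smtn, encoding smoothelin, was at -0.59 ± 0.15 (edgeR adjusted p of 0.153), the actin-bundling gene Synpo2 at -1.70 ± 0.51 (edgeR adjusted p of 0.219) and Cald1, encoding caldesmon, at -0.68 ± 0.23 (edgeR adjusted p of 0.268). Between FLASH and sham 9 of the 18 were lower and 9 higher, with a median of 0.00 to 2 decimals, and Cald1 and the alpha-actinin gene Actn1 had the smallest p, at -0.29 ± 0.20 and 0.22 ± 0.15. With 10 libraries, 13 of the 18 were lower in CONV, with Synpo2 at -1.88 ± 0.60, Pln at -2.67 ± 1.19 and Mylk at -0.60 ± 0.27. The value for Pln rested on few reads. It was at 0.243 to 1.71 CPM in sham and at 0.416, 0.067 and 0.037 CPM in CONV 1 to 3. A count of 3 equalled 0.1005 CPM in CONV 2 and 0.110 CPM in CONV 3.

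The 7 genes of the serum response factor pathway, the upstream regulators of the contractile genes, had 4 lower and 3 higher values in CONV than in sham with 8 libraries, with a median of -0.19. Foxo4 was at -0.23 ± 0.16, the coactivator gene Myocd at -0.81 ± 0.75 and Gata6 at -0.22 ± 0.21. Between FLASH and sham Srf itself was at 0.22 ± 0.14 and Gata6 at 0.18 ± 0.19.

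Of 15 further pericyte genes, 10 were lower and 5 higher in CONV than in sham with 8 libraries, and their median was -0.19. Steap4, a metalloreductase gene, was at 820, 908 and 879 CPM in sham, 1042, 1040, 262 and 1175 CPM in FLASH and 1459, 123 and 1881 CPM in CONV. Outside the B cell-rich pair it was thus higher in CONV than in any sham or FLASH library, opposite to Rgs5, with a log2 fold change of 0.92 ± 0.16 against sham (edgeR adjusted p of 0.0924). P2ry14, a nucleotide sugar receptor gene, was at 1.17 ± 0.38, while Gucy1b3 and Gucy1a3, the subunits of the nitric oxide receptor, were at -0.61 ± 0.22 and -0.74 ± 0.31. Over the 10 libraries P2ry14 was highest in the B cell-rich pair, at 9.80 and 9.08 CPM, against 0.70 to 4.00 CPM elsewhere. The smallest p in FLASH against sham were those of Steap4, at 0.31 ± 0.15, and the potassium channel gene Kcnj8, at -0.41 ± 0.28. The pericyte list therefore held genes on both sides of 0 in CONV libraries. Steap4 was lowest in the B cell-rich pair, as was the summed CPM of the 12 adipocyte genes, at 6016 and 4597. The part of other cell types in the levels of Steap4 and P2ry14 was not tested.

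Among 13 genes of Notch signalling around Notch3, 7 were lower and 6 higher in CONV than in sham with 8 libraries, with a median of -0.14. Heyl, a transcriptional target of Notch3 in mural cells, was at 28.3, 28.1 and 31.6 CPM in sham, 29.4, 17.7, 4.67 and 23.9 CPM in FLASH, and 15.3, 3.45 and 12.6 CPM in CONV. Every CONV library was below every sham library for Heyl, at -1.09 ± 0.22 with 8 libraries (edgeR adjusted p of 0.104), while the receptor gene Notch3 was at -0.18 ± 0.20. The target Hey1 was at -0.62 ± 0.23 and the receptor Notch1 at -0.30 ± 0.15. With 10 libraries the ligand Dll4 was among the 3 genes with the smallest p, at -0.70 ± 0.40, and Heyl was at -1.49 ± 0.67. In FLASH against sham with 8 libraries Heyl was at -0.32 ± 0.19 and Notch4 at 0.43 ± 0.26.

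Of the 5 genes of platelet-derived growth factor signalling beside Pdgfrb, 3 were lower and 2 higher in CONV than in sham with 8 libraries. The ligand genes Pdgfd and Pdgfa were at -0.95 ± 0.30 and -0.58 ± 0.18 (edgeR adjusted p of 0.238 and 0.245), and Pdgfb, the ligand that endothelial cells send to pericytes, was at 0.26 ± 0.27. Between FLASH and sham Pdgfd was at -0.47 ± 0.26 and Pdgfb at 0.36 ± 0.24. In the angiopoietin and Tie list, which covers another signal between mural and endothelial cells, 4 of 5 genes were lower in CONV than in sham with a median of -0.06. Its smallest p in CONV against sham were those of Angpt2 at -0.44 ± 0.24, Tek at -0.16 ± 0.20 and Angpt4 at 0.37 ± 0.66. Between FLASH and sham they were those of Angpt1, the ligand made by mural cells, at -0.41 ± 0.20, and Angpt2 at 0.32 ± 0.21. The 12 endothelial genes had a median of -0.09 in CONV against sham and 0.07 in FLASH against sham with 8 libraries. In FLASH against CONV with 8 libraries, 11 of 13 Notch genes and 14 of 18 contractile genes were higher. Of these, 5 and 4 had an unadjusted edgeR p under 0.05, against 6.75% of all genes. For serum response factor, pericyte, growth factor and angiopoietin genes, 5 of 7, 9 of 15, 3 of 5 and 3 of 5 were higher. Of these, 0, 0, 1 and 1 had such a p, as did 2 lower pericyte genes.

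**Figure D4:**
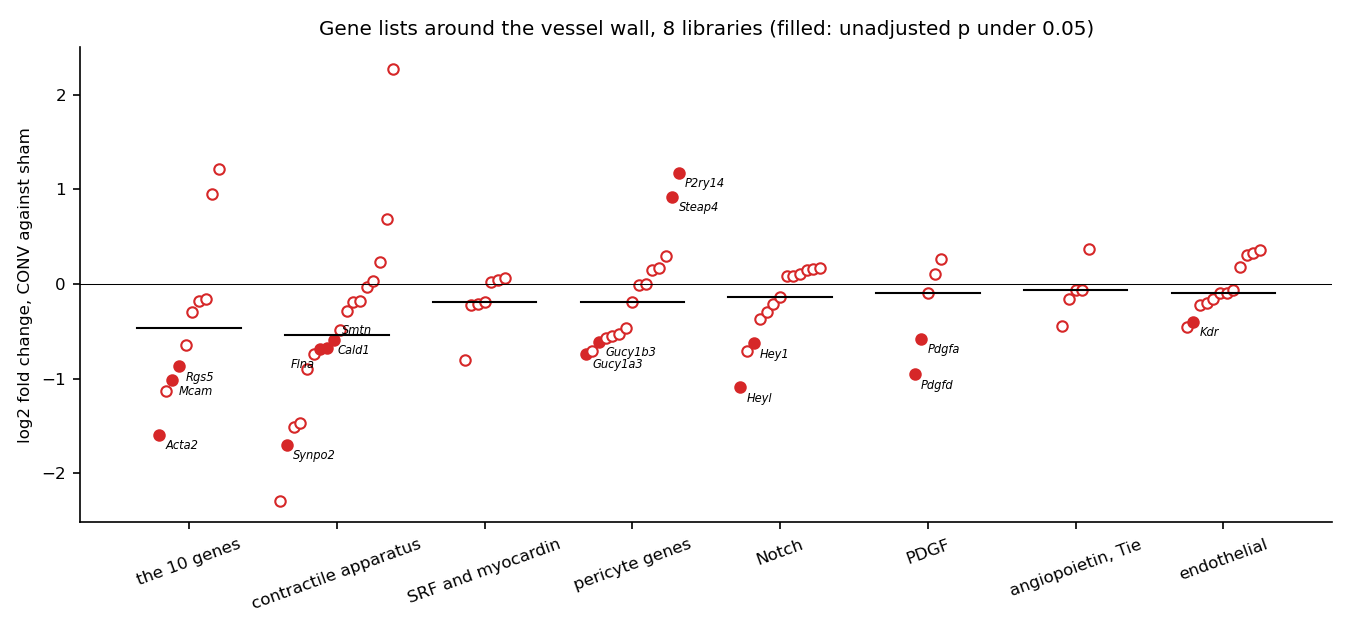
Log2 fold changes of CONV against sham with 8 libraries (vertical axis) for the 10 genes, 6 related lists and the endothelial genes; each point is a gene, filled where the unadjusted edgeR p is under 0.05 (those genes are named), and lines are list medians. No point passed the adjusted threshold, and Steap4 and P2ry14 lie above 0 while Heyl, Pdgfd and Synpo2 lie below.

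Similarity over the 10 libraries was described by the root mean square difference of log2 CPM, each gene centred on its own mean, among 11389 genes. The nearest genes to Acta2 were Aff2, Hymai, Slc16a12, Dmrt2 and A430105I19Rik, the nearest at 0.33 where the SD of Acta2 itself was 1.28. The nearest to Rgs5 were Ptprm, Hoxc6, Sat2, Gstt1 and Lix1l, the nearest at 0.17 with an SD of Rgs5 of 0.68. With 8 libraries 1 of the 5 was shared for Acta2 and 1 of the 5 for Rgs5, so these neighbours depended on the B cell-rich pair. Tagln and Myh11 were each among the 100 nearest genes of the other with 10 and with 8 libraries, and Rgs5 and Mcam were so with 8 libraries but not with 10. Pdgfrb, Cspg4, Notch3 and Des had none of the other 9 genes among their 100 nearest in either set.

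The neighbours of Cspg4, named here after their values were seen, were Plin5, Ppara, Gpx8, Agpat2 and Rasl12, of which Plin5, Ppara and Agpat2 are genes of lipid storage and oxidation. Agpat2 was at 868 CPM in CONV 3 and at 46.3 to 427 CPM elsewhere, and Ppara was at 96.4 CPM in CONV 3 and at 6.14 to 51.7 CPM elsewhere. Cspg4, Agpat2 and Ppara were thus highest in the same library and lowest in the B cell-rich pair. The summed CPM of the 12 adipocyte genes was not raised in CONV 3, at 29470 against 24400 to 30810 in sham. The largest part of that sum in sham was Lpl, at 8642 to 12710 CPM. The genes of the list went both ways in CONV 3. Cidea, Pnpla2, Fabp4, Cfd, Retn and Pparg had their highest level there, at 113, 2351, 2816, 8416, 978 and 310.5 CPM. Plin1, Lep and Lpl were below every sham library, at 1380, 323 and 7888 CPM. The neighbours of Des, also named after their values were seen, were Adssl1, Eno3, Got1, Igsf6 and Cd300a. Of these, Eno3 and Adssl1 are known as skeletal muscle genes, and Eno3 is also in the skeletal muscle list. Igsf6 and Cd300a were highest in CONV 1 and the B cell-rich pair, at 12.4 to 21.6 CPM and 19.8 to 25.8 CPM. The part of adipocytes in the Cspg4 level was not tested.

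**Figure D5:**
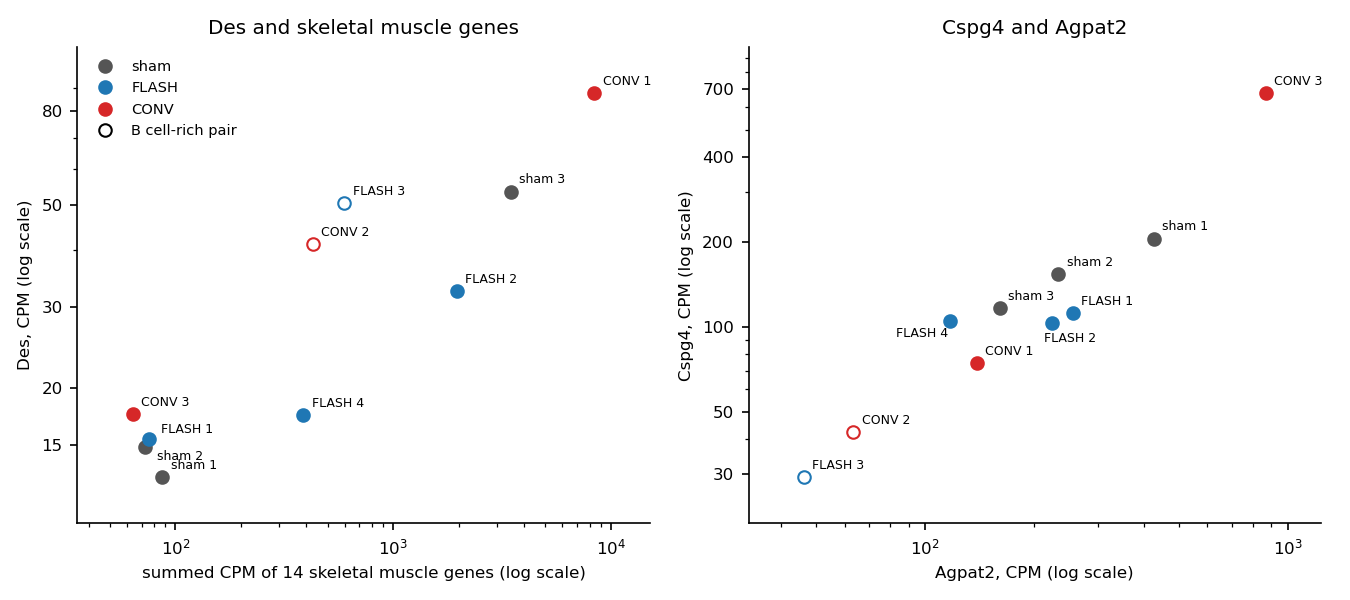
Left, Des CPM against the summed CPM of 14 skeletal muscle genes; right, Cspg4 CPM against Agpat2 CPM; each point is a library, all axes are logarithmic and open points are the B cell-rich pair. Des is highest in CONV 1 and sham 3, where the skeletal muscle sum is 8394 and 3484 (the sums of the open points are nearly all Ttn), and Cspg4 is highest in CONV 3 at 674 CPM, where Agpat2 is at 868 CPM.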

How the data were processed

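The authors deposited 1 table of raw, unscaled counts of reads per gene for each library. Kallisto 0.5.0 and mm10 were used, per the submitters' processing notes, while each table closes with entries for reads given to no gene (52.0% to 69.6% of all entries) under the names that htseq-count writes. These stayed out of library sizes and tests. Aligner, annotation and strand setting: not given in the sources used here. Per the labels' protocols, libraries were stranded total RNA depleted of ribosomal RNA.

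In R 4.3.3, edgeR 4.0.16 fitted a robust quasi-likelihood model with 1 mean per group after filterByExpr and TMM scaling, with tests two-sided and Benjamini-Hochberg adjustment over all genes. The biological coefficient of variation was 0.543 with 10 libraries and 0.284 with 8. The edgeR test gives no SE, so the SE of each edgeR fold change was derived from the test. It is the absolute log2 fold change divided by the square root of the F statistic. DESeq2 1.42.0 and limma 3.58.1 (voom), other scalings, no filter, fits of 2 groups, a replicate block and leaving out each library were alternatives. The steps were tested on simulated data. Log2 CPM used a prior count of 2. Gene positions came from GENCODE M21.

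The members, gene lists, B cell-rich pair and alternatives were chosen with earlier results of these data known. Named were all 10 genes; from each related list those past the threshold, or, as none passed, the 3 with the smallest p in CONV against sham and the 2 in FLASH against sham, with 8 libraries unless 10 are named; the 5 nearest genes of Acta2 and Rgs5 (mean log2 CPM 2 or more); and the most abundant 2 genes of marker lists that moved with a member. Other genes named were chosen after their values were seen.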

Additional observations from a re-analysis of the deposited data

Results flagged for a closer look

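The Cspg4 level of FLASH 3, at 29.3 CPM, lay far below those of the other 3 FLASH libraries: its gap to the nearest of them was 0.897 of the range of the group, above Dixon's limit for a group of 4. The summed CPM of the 9 B cell genes in the same library, 2323, lay far above the other FLASH libraries, with a gap of 0.999 of the range. FLASH 3 had already been set apart by its B cell genes, so the latter repeats that choice. Chance puts about 1 in 20 groups past the limit itself. The part of lymphoid cells in the Cspg4 level was not tested.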

How the results depend on the processing

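With groups of 3 and 4 libraries, none of the 10 genes passed in edgeR in any alternative with 10 libraries. With a replicate block, for which nothing but a shared number pairs the libraries (correlations of same-numbered deviations from -0.76 to 0.26), 0 members and 0 genes passed in each comparison. DESeq2 called 66 genes in CONV against sham and 40 in FLASH against CONV with 10 libraries, and 4 in FLASH against sham, 661 in CONV against sham and 667 in FLASH against CONV with 8, among them 3 of the 10 members in each of the last 2. The filter kept 15266 genes with 10 libraries and 15252 with 8. Without the B cell-rich pair edgeR called 6 genes in CONV against sham and 2 in FLASH against CONV.

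Leaving out 1 library gave 0 to 1 genes with 10 libraries in CONV against sham and in FLASH against CONV. With 8 it gave 0 to 1134 and 0 to 1025 genes and 0 to 2 members, the most without CONV 1, when Mcam and Cspg4 passed on the single CONV library left (CONV 3) with adjusted p of 0.0453 and 0.0116 in CONV against sham and 0.0415 and 0.00489 in FLASH against CONV.

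Signs changed as follows (log2 fold changes). In FLASH against sham, use of 8 libraries gave 0.080 for Acta2, 0.20 for Tagln, 0.14 for Notch3, -0.31 for Des and 0.046 for Mcam; in FLASH against CONV it gave -0.031 for Pdgfrb; limma voom gave -0.23 for Cspg4 in CONV against sham with 10. Leaving out 1 of 10 libraries, FLASH against sham ran from -0.49 to 0.17 for Acta2, -0.67 to 0.20 for Tagln, -0.13 to 0.14 for Notch3, -0.32 to 1.05 for Des and -0.55 to 0.048 for Mcam. CONV against sham ran from -2.28 to 0.0077 for Cnn1 and -1.45 to 1.23 for Cspg4, and FLASH against CONV from -1.34 to 1.46 for Cnn1, -0.20 to 0.20 for Pdgfrb and -2.10 to 0.59 for Cspg4. Leaving out 1 of 8, FLASH against sham ran from -0.11 to 0.52 for Acta2, -0.32 to 0.50 for Tagln, -0.59 to 0.20 for Myh11, -1.53 to 0.35 for Cnn1, -0.73 to 0.65 for Des and -0.11 to 0.16 for Mcam. CONV against sham ran from -1.96 to 0.46 for Cnn1, -1.10 to 2.06 for Cspg4, -0.56 to 0.12 for Notch3 and -0.65 to 1.92 for Des. FLASH against CONV ran from -1.24 to 1.55 for Cnn1, -0.11 to 0.035 for Pdgfrb, -2.64 to 0.52 for Cspg4 and -2.01 to 0.33 for Des. Acta2, Rgs5, Tagln, Myh11 and Mcam kept their sign in CONV against sham and in FLASH against CONV under every alternative run. The causes of these changes were not tested. Cnn1 had the lowest depth, 0 to 87 counts per library.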
